A study of Mus musculus with 2 samples.

Results

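The genes described here are 10 mouse genes best known from the germ line: Morc1, Stra8, Tex14, Mael, Kit, Rhox5, Trap1a, Tdrd1, Piwil2 and Mov10l1. They are 10 of 10137 named genes measured on 2 two-colour oligonucleotide arrays, and each was read by 1 probe of 60 bases out of 21052 gene probes. A probe was taken as a member when the accession the array file gives for it matched the gene in mouse RefSeq. The genes had been picked with their signals on these same arrays known, so their signals and ratios are given as a description, without a test.

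RNA came from EB5 mouse embryonic stem (ES) cells, a line grown without feeder cells on gelatin. The cells had received siRNA against Klf4 together with the plasmid pCAGEGFP-IP. They were cultured for 24 h and then kept in puromycin for another 24 h, which enriches for transfected cells. This group, siKlf4 ES cells, has 2 samples (n = 2). Separate cultures are not stated for them, so p-values measure only the spread between these 2 arrays, which may be technical. Cy3 marked the ES cell RNA on each array and Cy5 the reference, an equal mixture of RNA from 11 mouse cell lines that includes embryo, fibroblast, kidney, liver, macrophage, B and T lymphocyte, mammary, myoblast, skin and testis lines. ES cells without Klf4 siRNA were not analysed here, so every ratio compares siKlf4 ES cells with the mixed reference and none measures the siRNA's effect. Both arrays have the same dye orientation, and a dye effect would stay in every ratio.

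Germline genes are expressed in primordial germ cells, spermatogonia, oocytes or meiotic cells and are kept silent in most somatic cells. Their promoters are often rich in CpG and silenced by DNA methylation, and a variant Polycomb complex that contains E2F6, MGA and MAX represses a share of them in ES cells. Several of the genes serve the piRNA pathway, in which small RNAs bound to PIWI proteins direct the silencing of transposons in germ cells.

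Klf4, the target of the siRNA, gave net signals of 1826 and 2542 units in siKlf4 ES cells on arrays 1 and 2, against 1518 and 1603 units in the reference. The identity of the cells was checked on marker lists. Of 9 measured pluripotency markers, 7 were at least 2-fold higher in siKlf4 ES cells than in the reference and 0 were lower (limma, Benjamini-Hochberg adjusted p under 0.05, same sign on both arrays). Sox2 stood at a log2 ratio of 5.69 ± 0.14 and Zfp42 at 5.01 ± 0.21 (SD, n = 2), and Tdgf1 at 5.98, although its dimmer probe gave 2.36. Of 9 measured fibroblast markers, 8 were called lower and 0 higher, among them Bgn at -4.78 and Dcn at -4.64. Over all 21028 probes tested, 5.08% were called higher and 5.19% lower by this rule. Net signal is the mean spot intensity minus the local background, in arbitrary units, and net signals of different probes or of different dyes are not comparable. A signal was taken as above background when it exceeded 95% of the 162 negative control spots in its array and channel. That limit was 155 units on array 1 and 178 units on array 2 for siKlf4 ES cells, and 40.9 and 58.4 units for the reference.

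Of the 10 genes, 7 lay above this limit in siKlf4 ES cells on both arrays (Morc1, Stra8, Tex14, Mael, Kit, Rhox5 and Trap1a). The other 3, Tdrd1, Piwil2 and Mov10l1, lay above it on neither array. Transcription of these 3 genes in siKlf4 ES cells was therefore not detected at this limit. The scanner software's well-above-background flag was set for all 10 genes in the ES channel. In the reference 7 of the 10 also exceeded the limit on both arrays, namely all of the first group except Kit, together with Tdrd1. Over all probes tested, 82.1% exceeded the limit in siKlf4 ES cells and 87.2% in the reference. These counts belong to the choice of the genes, and nothing is read from them. The gene nearest above the limit in siKlf4 ES cells was Tex14, at 2.94 and 2.96 times the limit, and the nearest below it was Tdrd1, at 0.996 and 0.919 times. None of the 10 genes passed on only 1 array. This split belongs to the 10 picked genes: of 98 other germline genes described below, 4 passed on only 1 array.

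**Figure D1:**
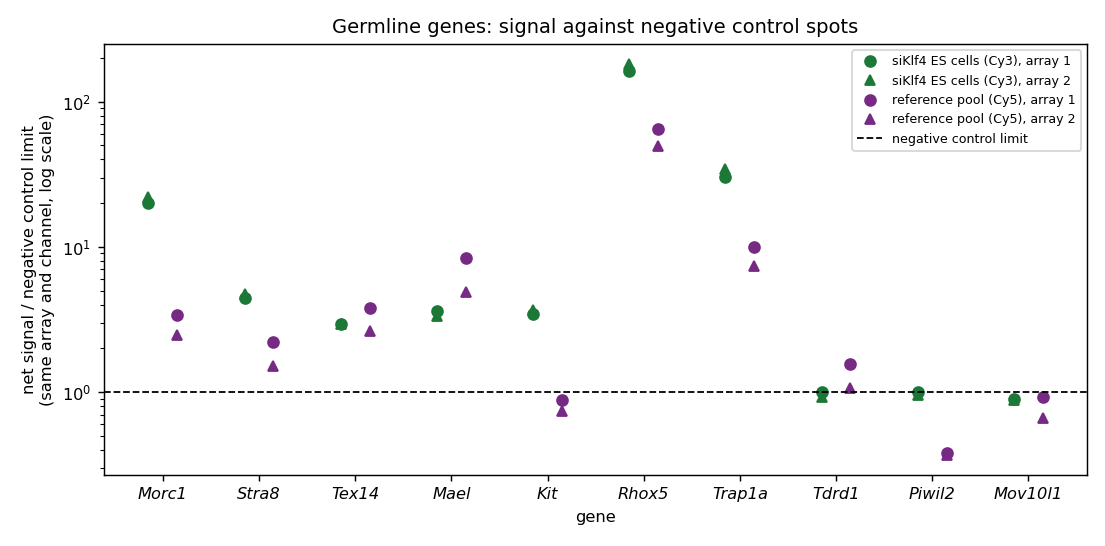
Net signal of each germline gene divided by the negative control limit of the same array and channel, on a log scale; circles are array 1 and triangles array 2, siKlf4 ES cells are green and the reference is purple, and the dashed line is the limit. Rhox5, Trap1a and Morc1 stand far above the line in siKlf4 ES cells, Kit lies above it in siKlf4 ES cells and below it in the reference, and Piwil2 and Mov10l1 lie below it in both.

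The log2 ratio of siKlf4 ES cells over reference, after background correction and loess normalisation within each array, was at least 1 (2-fold) for 6 of the 10 genes and under -1 for 0. Over all probes 5.08% were called at that size in the same direction, a share printed for scale and not as support, because the genes were chosen in this contrast. The 6 genes were Morc1, Trap1a, Rhox5, Kit, Stra8 and Tex14. The largest ratio of a negative control spot in either direction was 0.52, so any gene at 2-fold or more lies beyond it. Mael and Piwil2 also lay beyond that range but under 2-fold, and the signals of Piwil2 were below the limit in both channels.

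**Figure D2:**
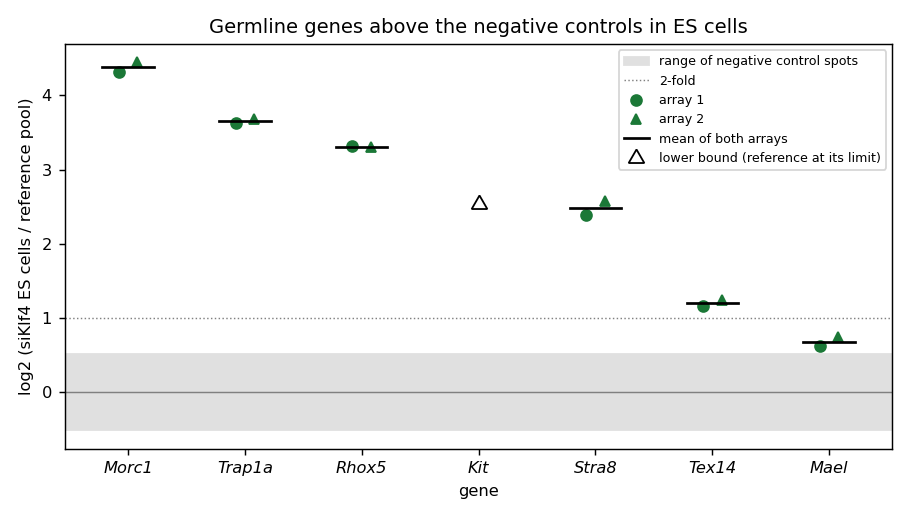
Log2 ratio of siKlf4 ES cells over reference for the 7 germline genes above the negative control limit in siKlf4 ES cells; points are single arrays, black lines are means of both arrays, the grey band is the range of the negative control spots and the dotted line is 2-fold. Kit is a lower bound (2.53, open triangle), and the other means fall between 4.38 for Morc1 and 0.68 for Mael.

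The gene with the highest ratio was Morc1, a Morc-family ATPase that male germ cells need to silence transposons. Its probe gave 3086 and 3911 units in siKlf4 ES cells, against 139 and 144 units in the reference. Both arrays showed the ES signal far above the negative controls and the reference signal only 3.41 and 2.48 times above its limit. The log2 ratio was 4.32 on array 1 and 4.45 on array 2, with a mean of 4.38 ± 0.087 (SD, n = 2), or 20.9-fold, and ranked 8 of the 21028 probes from the highest. On array 2 the brightest negative control spot in the reference channel, at 168 units, exceeded the Morc1 reference signal.

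The X-linked genes Rhox5 and Trap1a were bright in siKlf4 ES cells and also present in the reference. Rhox5 encodes a reproductive homeobox protein known from Sertoli cells, epididymis and placenta. It gave 25069 and 32466 units in siKlf4 ES cells, against 2648 and 2904 units in the reference. No spot was marked as saturated. The log2 ratios of 3.32 and 3.31 were nearly equal on the arrays, with a mean of 3.31 ± 0.0075 (SD, n = 2), or 9.92-fold. Trap1a encodes the tumour rejection antigen P1A, whose expression in normal adult tissue is known mainly from testis and placenta. It gave 4727 and 6056 units in siKlf4 ES cells, against 408 and 430 units in the reference. Its mean log2 ratio was 3.66 ± 0.040 (SD, n = 2), or 12.6-fold. For both genes the reference exceeded its own limit, by 64.8 and 49.8 times for Rhox5 and by 9.97 and 7.37 times for Trap1a, so neither transcript was limited to the ES cells.

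Stra8, a retinoic acid target needed for entry into meiosis, gave 693 and 840 units in siKlf4 ES cells, against 90.3 and 87.8 units in the reference. The ES signal was 4.47 and 4.73 times its limit on the arrays, and the reference signal 2.21 and 1.51 times. The mean log2 ratio was 2.49 ± 0.13 (SD, n = 2), or 5.60-fold. Tex14, which encodes a protein of the intercellular bridges that join dividing germ cells, had a smaller ratio. It gave 456 and 525 units in siKlf4 ES cells, against 154 and 155 units in the reference, and a mean log2 ratio of 1.20 ± 0.052 (SD, n = 2), or 2.29-fold. Both genes were higher in siKlf4 ES cells on each array.

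Kit encodes the receptor tyrosine kinase for Kit ligand, which supports primordial germ cells, spermatogonia and also mast cells and blood progenitors. Its probe gave 539 and 649 units in siKlf4 ES cells, against 36.0 and 43.4 units in the reference. The reference signal was below its limit on both arrays, so Kit was at least 5.79-fold higher in siKlf4 ES cells, with the reference raised to the limit. This and the other bounds hold for the normexp and loess processing only. The combination of a signal above the limit in siKlf4 ES cells on both arrays and in the reference on neither was found at 0.233% of all probes tested. That share is given for scale and not as support, because Kit was chosen with these signals known. Without background correction the Kit ratio was smaller than the bound, as given below.

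Of Mael, Piwil2, Mov10l1 and Tdrd1, which act in the piRNA pathway, Mael alone was above the limit in siKlf4 ES cells. It encodes Maelstrom, a germ granule protein needed for transposon silencing in the testis. It gave 564 and 594 units in siKlf4 ES cells, against 341 and 285 units in the reference. Both channels were clearly above their limits, and the mean log2 ratio was 0.68 ± 0.083 (SD, n = 2). The gene was higher in siKlf4 ES cells on both arrays, but by less than 2-fold. Piwil2, which encodes the PIWI protein MILI, gave 154 and 171 units in siKlf4 ES cells, against 15.6 and 21.5 units in the reference. Mov10l1, which encodes an RNA helicase of piRNA biogenesis, gave 139 and 157 units in siKlf4 ES cells, against 38.1 and 38.9 units in the reference. All 8 of these signals were below their limits, and no fold is given for these genes. Tdrd1, which encodes a Tudor-domain protein that binds PIWI proteins, gave 154 and 163 units in siKlf4 ES cells, against 63.5 and 62.7 units in the reference. The reference passed its limit by 1.55 and 1.07 times while the ES signal did not, and with the ES signal raised to its limit no fold remained in favour of the reference. In bulk RNA, fewer cells of a type and less RNA per cell cannot be told apart.

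The arrays differed little for these genes. The ES signal was higher on array 2 for 10 of 10 genes, as it was for the median probe, where array 2 was 1.14 times array 1. After normalisation the log2 ratio on array 1 minus that on array 2 had an absolute value between 0.0062 (Piwil2) and 0.19 (Stra8), with a median of 0.072, against 0.059 over all probes. The SD of this difference over all probes was 0.11, and Stra8, Mov10l1, Morc1 and Mael exceeded it in size. None of these differences has a replicate, and none was tested.

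The choice of background correction moved several of the ratios by more than 1.5-fold. Without it, Morc1 stood at 2.92, Trap1a at 2.91, Stra8 at 1.13 and Kit at 1.00, just under the limit for 2-fold, and Tex14 stood at 0.52. Rhox5, whose signals were far above background in both channels, stayed at 3.20. With a normexp offset of 16 in place of 50, Kit stood at 3.37. Under the other settings shown the genes above the limit in both channels moved by less than 1.5-fold.

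**Figure D3:**
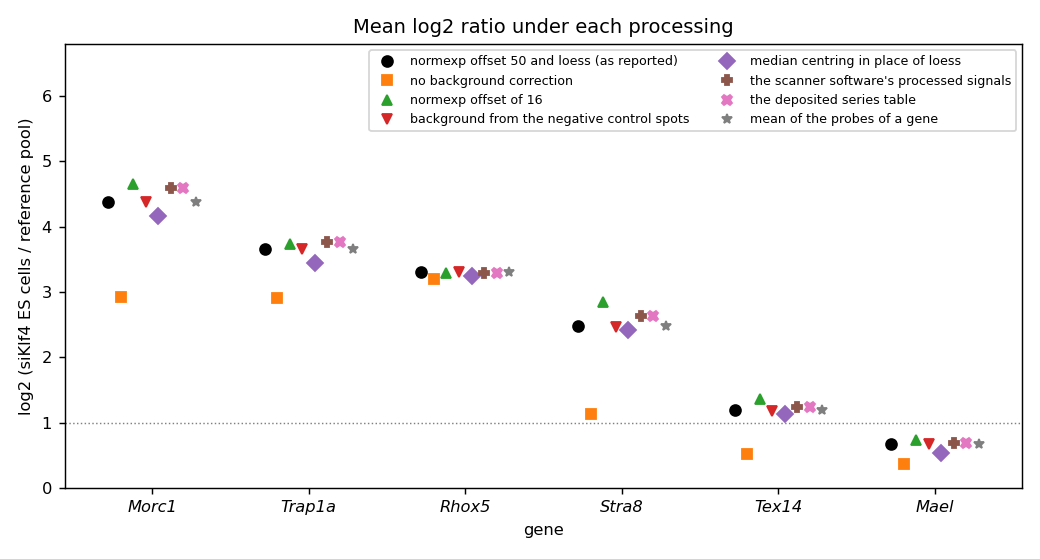
Mean log2 ratio of siKlf4 ES cells over reference under each processing, for the 6 germline genes above the negative control limit in both channels; the dotted line is 2-fold. Leaving out background correction (orange squares) lowers Morc1 to 2.92, Stra8 to 1.13 and Tex14 to 0.52, while Rhox5 stays between 3.20 and 3.31 under all settings shown.

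The probes that read the genes are shown by the first 30 of their 60 bases, as deposited, for the gene with the highest ratio (Morc1), for the gene below the limit in the reference alone (Kit), for an X-linked gene (Rhox5) and for a gene below the limit in both channels (Piwil2).
Morc1: aagatacagaaccctgagagggtatctcag
Kit: ctttgtattcctaatgacttcagttagagt
Rhox5: ttcaagaattcagcaataaagaggtggatt
Piwil2: gaaatgtaaaagccatagaattaaacagaa
The share of G and C was 36.7% for Morc1, Rhox5 and Trap1a, 35.0% for Kit and Tex14 and 33.3% for Piwil2, against a median of 41.7% over all probes. Probes of the other 4 genes lay between 43.3% and 45.0%. The 3 genes below the limit in siKlf4 ES cells had the lowest share (Piwil2) and the highest (Tdrd1 and Mov10l1).

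The promoter windows of the genes, 250 bases before to 50 after the RefSeq start (GRCm38.p6), were compared for CpG content and for 2 short motifs. CACGTG is the E-box that MGA and MAX bind and reads the same on both strands. GCGGGA is a core of E2F sites and was searched on both strands, so that it also appears as TCCCGC. RefSeq windows were matched for 8 of the 10 genes, all but Morc1 and Piwil2. The windows of Mael, Tex14, Tdrd1 and Rhox5 are shown because they differ in CpG content and hold either motif, both or none. Capitals mark the motifs, which do not overlap each other.
Mael, chr1:166238695-166238994, minus strand: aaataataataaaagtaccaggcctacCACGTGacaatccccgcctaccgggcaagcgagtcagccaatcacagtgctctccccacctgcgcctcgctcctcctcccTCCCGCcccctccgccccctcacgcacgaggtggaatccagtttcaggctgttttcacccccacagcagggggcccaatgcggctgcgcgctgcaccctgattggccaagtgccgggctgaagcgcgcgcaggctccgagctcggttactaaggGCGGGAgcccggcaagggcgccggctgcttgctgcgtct
Tex14, chr11:87404815-87405114, plus strand: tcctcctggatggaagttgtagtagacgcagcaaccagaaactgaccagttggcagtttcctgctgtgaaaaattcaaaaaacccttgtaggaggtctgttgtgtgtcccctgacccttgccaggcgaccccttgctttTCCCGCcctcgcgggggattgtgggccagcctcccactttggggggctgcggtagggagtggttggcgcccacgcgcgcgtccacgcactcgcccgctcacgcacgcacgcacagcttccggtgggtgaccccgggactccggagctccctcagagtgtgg
Tdrd1, chr19:56825959-56826258, plus strand: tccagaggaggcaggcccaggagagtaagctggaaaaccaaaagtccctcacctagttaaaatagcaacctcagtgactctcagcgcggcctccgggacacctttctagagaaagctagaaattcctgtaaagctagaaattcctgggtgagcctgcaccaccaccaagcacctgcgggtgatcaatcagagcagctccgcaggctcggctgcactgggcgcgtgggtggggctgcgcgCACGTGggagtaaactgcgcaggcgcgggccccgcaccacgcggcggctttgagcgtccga
Rhox5, chrX:37754358-37754657, plus strand: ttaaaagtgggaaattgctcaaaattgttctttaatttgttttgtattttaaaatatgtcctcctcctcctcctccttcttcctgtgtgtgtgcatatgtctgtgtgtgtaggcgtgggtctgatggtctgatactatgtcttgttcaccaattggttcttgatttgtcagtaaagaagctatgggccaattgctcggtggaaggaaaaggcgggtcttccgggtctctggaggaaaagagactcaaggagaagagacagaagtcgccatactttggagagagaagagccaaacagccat
Mael holds CACGTG 223 bases upstream of its start, and GCGGGA 143 bases upstream and again 12 bases downstream. Tex14 holds GCGGGA 111 bases upstream, and Tdrd1 holds CACGTG 11 bases upstream. Counting every start of a gene, CACGTG was found in windows of 3 of the 8 genes (Mael, Tdrd1 and Mov10l1) and GCGGGA in windows of 3 (Tex14, Mael and Kit), with only Mael holding both. Among 32841 mouse promoter windows of this length, 7.15% held CACGTG, 19.98% held GCGGGA and 1.99% held both. The ratio of observed to expected CpG was 0.78 for Mael, 0.73 for this Tdrd1 window, 0.69 for Tex14 and 0.67 for Mov10l1. It was 0.43 for Stra8, 0.49 for Trap1a and 0.36 for Rhox5, against a median of 0.38 over all windows. Kit, with 2 windows, had 0.62 and 0.65. The other windows of Tdrd1 had 0.81 and 0.22, and the one at 0.22 held neither motif. Genes above the limit in siKlf4 ES cells were found with GCGGGA alone (Kit and Tex14), with both motifs (Mael) and with neither (Trap1a, Rhox5 and Stra8). Tdrd1 and Mov10l1, below the limit, held the E-box alone. A match is a description of the letters and not evidence of binding.

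Other germline genes were read from 5 lists that leave the 10 genes out: piRNA genes, meiotic genes, genes of primordial germ cells, spermatogonia and oocytes, X-linked and cancer-testis genes, and spermatid genes. Together 98 of 164 listed genes were measured. The lists were chosen with earlier results of these data known. Counts for them and for the lists further below are therefore a description, set beside the shares of all probes. Of these, 15 were called higher in siKlf4 ES cells, 4 lower and 79 neither (limma, adjusted p under 0.05, at least 2-fold, same sign on both arrays), against 5.08% and 5.19% of all probes. At adjusted p alone, 48 were higher and 26 lower, where 31.6% and 31.4% of all probes passed. Their median log2 ratio was 0.09, and that of all probes was -0.01. Above the limit in siKlf4 ES cells on both arrays were 81 of the 98, against 82.1% of all probes, which is a similar share. Without background correction the calls came to 9 higher and 2 lower, against 510 and 467 of all 21028 probes.

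**Figure D4:**
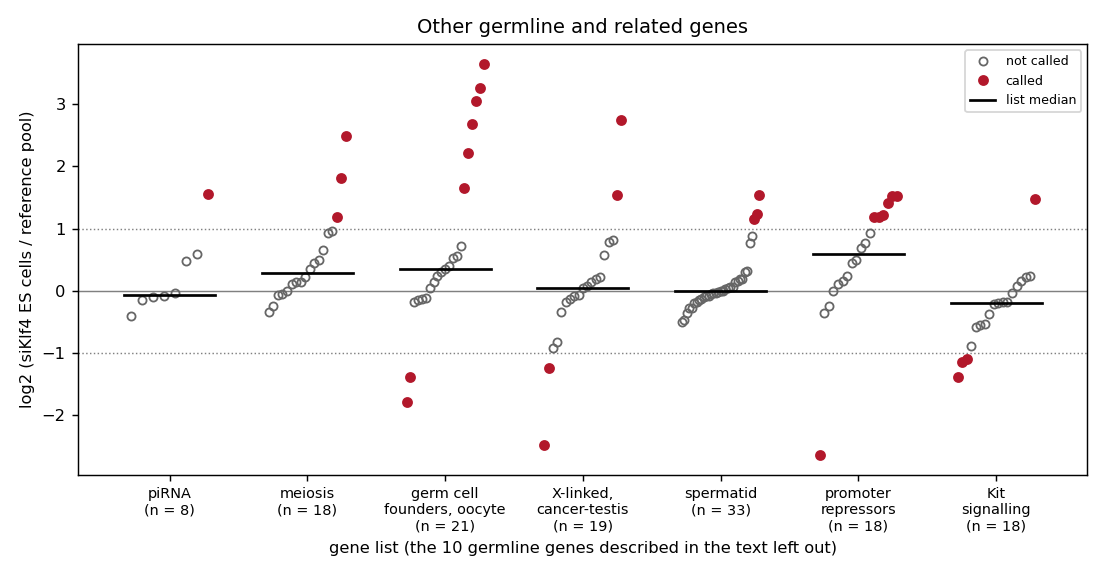
Log2 ratio of siKlf4 ES cells over reference for each measured gene of 5 germline lists, of repressors of germline promoters and of Kit signalling genes, with the 10 germline genes left out. Filled points are genes called by limma at 2-fold or more, open points are not called, black lines are list medians and dotted lines are 2-fold in each direction; points below the negative control limit in a channel are drawn at their measured ratio. Called genes of the primordial germ cell list reach 3.66, and the spermatid list is centred on a median of -0.01.

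In the list of primordial germ cell, spermatogonial and oocyte genes, 6 of 21 were called higher and 2 lower, at a median of 0.36. Dppa3 (Stella), a marker of primordial germ cells and oocytes, stood at 3.66 ± 0.027 (SD, n = 2; limma, adjusted p = 4.71e-07). Tfap2c, a transcription factor of germ cell specification, stood at 3.26 ± 0.079 (limma, adjusted p = 6.55e-07). The deubiquitinase gene Uchl1, a spermatogonial marker, stood at 3.05 and Alpl, the alkaline phosphatase used to stain primordial germ cells, at 2.69. The 2 lower genes, named after their values were seen, were Ifitm3 (-1.78) and Kitl. Kitl, the ligand of Kit, gave 457 and 623 units in siKlf4 ES cells, against 1316 and 1428 units in the reference, and stood at -1.38 ± 0.12 (limma, adjusted p = 1.08e-05), or at -0.90 without background correction. Receptor and ligand thus lay on opposite sides of the reference.

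Of 18 measured meiotic genes, 3 were called higher and 0 lower, at a median of 0.29. The meiotic cohesin gene Stag3 gave 1432 and 1503 units in siKlf4 ES cells, against 249 and 224 units in the reference, and stood at 2.49 ± 0.0095 (limma, adjusted p = 7.89e-07). Sycp3, a component of the chromosome axis, was below the limit in the reference on both arrays and at least 2.48-fold higher in siKlf4 ES cells. Syce2, of the central element of the synaptonemal complex, stood at 1.19 (0.99 if arrays were only centred on the median), and Hormad1, another axis gene, at 0.97, just under 2-fold. Msh4 and Mei4, which act in meiotic recombination, were above the limit in neither channel and were named after their values were seen.

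Of 8 measured piRNA genes outside the 10, 1 was called higher and 0 lower, at a median of -0.06. This was Ddx4, the germ cell helicase also called Vasa, with 295 and 339 units in siKlf4 ES cells, against 37.5 and 46.3 units in the reference. Its reference signal was below the limit, and Ddx4 was at least 2.70-fold higher in siKlf4 ES cells (0.45 on the log2 scale without background correction, where it was not called). Fkbp6 (0.49), Tdrd3 (-0.40) and Mybl1 (-0.15) were above the limit in siKlf4 ES cells and under 2-fold.

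Of 19 measured X-linked and cancer-testis genes, 2 were called higher and 2 lower, at a median of 0.04. Both higher genes are Rhox homeobox genes. Rhox9 gave 2280 and 2696 units in siKlf4 ES cells, against 375 and 348 units in the reference, and stood at 2.75 ± 0.095 (SD, n = 2; limma, adjusted p = 1.14e-06). Rhox6, the nearest measured gene on one side of Rhox5, stood at 1.54 ± 0.30 (limma, adjusted p = 8.07e-05). Rhox4b, the nearest measured gene on the other side across 16 unmeasured genes, stood at 0.82, and its tandem copies are so alike that the probe may read several of them. Xlr4b, of a family of near-identical copies that the probe may not tell apart, was lower at -2.48, and Maged2 was lower at -1.25. Of the 3 measured Magea genes, named after their values were seen, 0 exceeded the limit in siKlf4 ES cells on both arrays.

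Spermatid genes were close to the reference. Of 33 measured, 3 were called higher and 0 lower, at a median of -0.01. The tektin gene Tekt1 stood at 1.53, the testis cytochrome c gene Cyct at 1.23 and Tcp11 at 1.15 (limma, adjusted p between 4.85e-06 and 1.52e-05), and each of the 3 fell under 2-fold without background correction (0.74, 0.49 and 0.70). The testis lactate dehydrogenase gene Ldhc stood at 0.88. The protamine gene Prm1 gave 475 and 552 units in siKlf4 ES cells, against 676 and 649 units in the reference, at -0.47. Prm1 was named after its values were seen.

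Several other named genes also moved by more than 1.5-fold without background correction while they were still called. Dppa3 then stood at 2.13, Tfap2c at 1.49, Uchl1 at 2.24, Alpl at 1.85, Stag3 at 1.56, Rhox9 at 2.00 and Xlr4b at -1.58. Of the cell markers, Sox2 then stood at 4.45, Tdgf1 at 4.60, Bgn at -3.69 and Dcn at -2.97. Sycp3 (0.48) and Maged2 (-0.56) were no longer called.

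Repressors of germline promoters were all above the limit in both channels. Of 18 measured, 6 were called higher in siKlf4 ES cells and 1 lower, at a median of 0.59. Over all probes tested, 5.08% were called higher and 5.19% lower. Without background correction 4 repressors were called higher, with median centring 5, and 1 was lower in each case. L3mbtl2, a subunit of the E2F6 complex, stood at 1.53 ± 0.091 (SD, n = 2; limma, adjusted p = 5.12e-06), Trim28, the corepressor of KRAB zinc finger proteins, at 1.52 and Max at 1.41. Yaf2, a Polycomb subunit related to Rybp, was lower at -2.64 ± 0.20 (limma, adjusted p = 3.86e-06), or -1.87 without background correction. E2f6 itself stood at 0.68 and Dnmt1, the maintenance methyltransferase, at 0.49, both under 2-fold and named after their values were seen. Of 18 measured genes of Kit signalling, 1 was called higher and 3 lower, at a median of -0.20. The adaptor gene Gab1 stood at 1.47 (0.79 without background correction). The lower genes were Kitl and the blood transcription factors Tal1 and Gata2, both below the limit in siKlf4 ES cells. Tal1 gave 131 and 146 units in siKlf4 ES cells, against 141 and 149 units in the reference, and Gata2 gave 125 and 129 units in siKlf4 ES cells, against 114 and 117 units in the reference. Their calls depend on the processing: without background correction Tal1 stood at -0.29 and Gata2 at -0.26, with median centring at -0.97 and -0.89, and neither was called. The counts for the list then came to 0 higher and 0 lower without background correction, and 1 was lower with median centring.

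Markers of other cells that transcribe some of the 10 genes were read beside them. Of 11 measured mast cell and blood progenitor markers, 0 were called higher in siKlf4 ES cells and 4 lower, but 0 were lower without background correction and 2 with median centring. The 4 were Cd34, Ptprc, Tal1 and Gata2, all below the limit in siKlf4 ES cells and above it in the reference. Without background correction Cd34 stood at -0.76 and Ptprc at -0.82. The mast cell genes Hdc (0.50), Cpa3 (0.08), Ms4a2 (0.05), Fcer1a (-0.03), Mcpt4 (-0.03) and Mcpt8 (-0.19) and the erythroid and mast cell factor gene Gata1 (-0.03) were above the limit in both channels and under 2-fold. These 7 were named after their values were seen. The summed net signals of the list, which add different probes and set one dye beside the other and so are given for scale only, were 3443 and 4143 units in siKlf4 ES cells and 3727 and 3972 units in the reference. Of 13 measured Sertoli and Leydig cell markers, 0 were called higher and 1 lower. This was Clu, below the limit in siKlf4 ES cells, which stood at -0.45 without background correction and was then not called. The sums, again for scale only, were 3894 and 4546 units in siKlf4 ES cells and 3583 and 3851 units in the reference. Wt1, a Sertoli cell marker, stood at -0.27 and Lhcgr, a Leydig cell marker, at 0.59. Of 4 measured markers of 2-cell-like cells, 1 was called higher. This was Eif1a, at 1.12 by its brighter probe and 0.84 by the other, and not called at 0.99 with median centring. The brighter probe gave 4049 and 6079 units in siKlf4 ES cells, against 2278 and 2304 units in the reference. Its transcript was thus not limited to the ES cells. Tcstv3 stood at 0.28 by its brighter probe but at 1.40 by the other, and Zfp352 stood at -0.09. The part of these cells in the ratios of the germline genes was not tested.

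The genes next to the 10 on their chromosomes, by the order of protein-coding genes in RefSeq, mostly did not share their ratios. Of the nearest measured neighbours on each side, Dppa4 beside Morc1 and Rhox6 beside Rhox5 were called higher. Dppa4, a chromatin protein of pluripotent cells, gave 2615 and 3275 units in siKlf4 ES cells, against 221 and 252 units in the reference, and stood at 3.53 ± 0.023 (SD, n = 2; limma, adjusted p = 4.71e-07). Cald1 beside Stra8 (-2.57), Pdgfra beside Kit (-2.81) and Ppp3cc beside Piwil2 (-1.62) were called lower. Cald1 and Pdgfra exceeded the limit in siKlf4 ES cells on only 1 array, so the sizes of these ratios are uncertain.

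For the 3 genes with the highest ratios, the named genes with the nearest log2 ratios over the 2 arrays were sought, by Euclidean distance. For Morc1 these were Gldc (distance 0.067) and Tcl1 (0.086). For Trap1a they were Dppa3 (0.068) and Dppa4 (0.19), and for Rhox5 they were Slc35f2 (0.084) and Tfap2c (0.10). With 2 arrays of 1 group, such likeness says only that the ratios to the reference were of similar size.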

How the data were processed

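The authors' scanner files, made with Agilent Feature Extraction per the file headers, give spot and local background intensity in arbitrary units as well as processed signals after background subtraction and LOWESS dye normalisation. The log10 ratios deposited beside them are of red over green processed signal. The values of the series table are on a log10 scale, and the authors' steps behind them are not stated here. Within 2e-04 a value is the log10 red processed signal, averaged over arrays, minus the array's log10 ratio for 99.6% of 21052 probes (column medians 2.918 and 2.921). Spot flags are deposited 0 or 1 values (other units).

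Mean signals were corrected in limma 3.58.1 (R 4.3.3) by normexp with an offset of 50 and normalised by loess within each array, control spots at weight 0. Ratios are log2 of green (ES cells) over red (reference). Outlier flags removed 24 probes and left 21028. Probes were named by RefSeq accession (10422 with 1 symbol), and the brightest probe stands for a gene. limma tested mean ratios against 0 (residual degrees of freedom 1, prior 4.24) and used Benjamini-Hochberg adjustment over all probes. The call rule was run on simulated data whose unchanged probes were centred on 0, which cannot test for a dye effect. A bound raises the dim channel to the negative control limit and keeps the loess step; the scanner flag was not used for it, since 10 of the 10 genes carried it in the ES channel. Correlation of log2 ratios between arrays over all probes was 0.99. That there are 2 arrays limits the precision.

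The members and lists were chosen with earlier results of these data known. The text names all 10 genes and, per list, up to 4 others (3 per marker list), called ones with the largest ratio first, then those above the limit in ES cells, besides called neighbours and nearest ratios.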

Additional observations from a re-analysis of the deposited data

How the results depend on the processing

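Alternatives were no background correction, a normexp offset of 16, background from the negative control spots, median centring, processed signals, the series table, the mean of a gene's probes (adjusted p the largest among them), an intensity trend, other limits and filters, and each array left out. Of the 10 genes, 4 were at least 2-fold higher without background correction, against 6 as reported. With a normexp offset of 16, and likewise with median centring, there were 7. The added gene was Piwil2, whose signals were below the limit in both channels. Without background correction 9 of the other germline genes were called higher and 2 lower, against 15 and 4 as reported. Of all 21028 probes, 510 were then called higher and 467 lower. At adjusted p alone the counts were 48 and 26, where 31.6% and 31.4% of all probes passed. Beyond the ratio of every negative control spot, 27 were higher and 6 lower, against 2552 and 2273 of all probes. With the highest negative control spot as the limit, 3 of the 10 genes were above it in the reference (Mael, Rhox5 and Trap1a) in place of 7, since the brightest such spot on array 2 had 168 units. In siKlf4 ES cells the same 7 genes were above it under each percentile, the highest spot and the unsubtracted signal; the scanner flag was set for all 10. Tdrd1, for which no fold is given, stood at 0.15 with median centring and at -0.06 as reported, and the cause was not tested. Leaving out either array left the counts of genes at least 2-fold higher at 6 of the 10 and at 15 and 4 of the others, with no test on 1 array. Signals near the negative control spots limit Kit, Stra8, Tdrd1, Piwil2 and Mov10l1. No paired analysis was possible because there is only 1 group of samples.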
